A study of Mus musculus with 10 samples.

Results

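The citric acid cycle enzymes described here were 9 genes, Cs, Idh2, Idh3a, Idh3b, Idh3g, Ogdh, Suclg1, Mdh2 and Fh1, chosen by name for their role in the cycle and found by symbol among the 56748 genes of the count tables. Whole hearts, atria and ventricles together, came from 5 wild-type mice that ran on a treadmill and from 5 sedentary wild-type mice. Training ran for 8 weeks, 120 min a day on 5 days a week at 15 m/min, after rest and acclimatisation. All mice were male C57BL/6, 8 weeks old when bought, with no further allele named. The paper describes a PET/CT scan with an injected radiotracer, under isoflurane, in each animal of both groups before hearts were harvested. Each heart was a library of its own from a mouse of its own. The running was forced, so handling on the treadmill and exercise cannot be told apart. The comparison asked how the RNA of these enzymes differed between training and sedentary hearts.

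The cycle oxidises acetyl-CoA in the mitochondrial matrix to carbon dioxide and passes the electrons to the respiratory chain as NADH and FADH2. Citrate synthase (Cs) starts the round by joining acetyl-CoA to oxaloacetate, and the isocitrate and 2-oxoglutarate dehydrogenases release carbon dioxide. Succinyl-CoA ligase makes a nucleoside triphosphate directly, and fumarase (Fh1) and malate dehydrogenase (Mdh2) return the carbon to oxaloacetate. Heart muscle is packed with mitochondria and draws most of its ATP from oxidation, which makes these enzymes abundant there.

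None of the 9 genes differed between training and sedentary hearts at a false discovery rate (FDR) below 0.1 in edgeR's test, against 7.01% of the 15454 genes tested. Of the 9, 0 had an unadjusted p under 0.05 in edgeR, against 20% of all genes. DESeq2 called 0 of 9 too, with 1 of 9 at an unadjusted p under 0.05. The mean was lower in training hearts for 8 of 9 genes, against 49.9% of all genes tested. With library totals alone in place of TMM factors it was lower for 6 of 9, with a median log2 fold change of −0.0229, where the median of all genes was 0.0533. The differences were small: the median log2 fold change was −0.08, all 9 lay within 0.1 of zero on the log2 scale, as did 53.1% of all genes, and in 0 of 9 were the groups without overlap, against 5.06% of all genes. All 9 genes averaged 100 CPM or more (CPM are counts scaled to library size). The 1369 tested genes of that class had a median log2 fold change of −0.04, with 895 below 0. At an FDR below 0.1, 37 of the 1369 were higher and 164 lower, and 148 had groups without overlap. An unadjusted p under 0.05 in edgeR was found for 422 of them, and 877 lay within 0.1 of zero. The 95% intervals of the 9 differences reached from −13.5% (Ogdh) to 17.2% (Idh2). For each gene, changes inside its own interval were not excluded. Leaving out training heart 1 gave 1 call among the 9, Suclg1.

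The 9 genes lie on 9 different chromosomes. In the 250 bases upstream of the start of each gene's canonical transcript (GENCODE M39, build GRCm39), short motifs of known factors were searched on both strands, and their share over 15393 promoters of tested genes was taken in the same way. The NF-Y box CCAAT was in 5 of 9 (Cs, Idh3a, Idh3g, Ogdh and Fh1), against 34.9% of all promoters. The GC box GGGCGG, read by SP factors, was in 3 of 9 (Cs, Mdh2 and Fh1), against 45.9%. The GABPA motif CCGGAAGT was in Mdh2 alone, against 3.51%. Neither the estrogen-related receptor motif AAGGTCA (3.39% of all promoters) nor the NRF1 motif (5.15%) occurred in any of the 9 windows, and the letters AAGATGGCG, TGACGTCA, CACGTG and TATAAA were absent from all 9 as well. The sequences below show what the members share and do not share: Ogdh holds a pair of CCAAT boxes near its start, Fh1 holds a GC box with a pair of CCAAT boxes, and Suclg1 holds none of the motifs. Capitals mark CCAAT and GGGCGG or their reverse complements, and for Mdh2 the GABPA match with 10 bases on either side. The Cs, Idh2 and Idh3a windows overlap exons of other transcripts of the same gene. On the opposite strand, exons lie in the windows of Mdh2 (Styxl1), Idh3g (Ssr4) and, from long non-coding RNAs, Ogdh (Gm72270), Fh1 (Gm69937), Cs and Idh3b.
Ogdh, chr11:6241301-6241550, plus strand: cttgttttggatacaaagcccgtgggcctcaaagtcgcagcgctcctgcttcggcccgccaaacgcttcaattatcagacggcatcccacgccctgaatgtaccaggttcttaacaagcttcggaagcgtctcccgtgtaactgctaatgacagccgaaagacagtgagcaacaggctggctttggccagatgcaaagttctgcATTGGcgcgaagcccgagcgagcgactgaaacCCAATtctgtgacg
Fh1, chr1:175453206-175453455, minus strand: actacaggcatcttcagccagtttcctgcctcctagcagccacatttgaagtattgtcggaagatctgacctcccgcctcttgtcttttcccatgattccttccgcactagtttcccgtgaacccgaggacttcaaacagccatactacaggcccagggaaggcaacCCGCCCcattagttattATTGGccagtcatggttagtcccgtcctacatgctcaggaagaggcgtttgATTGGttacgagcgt
Suclg1, chr6:73225115-73225364, plus strand: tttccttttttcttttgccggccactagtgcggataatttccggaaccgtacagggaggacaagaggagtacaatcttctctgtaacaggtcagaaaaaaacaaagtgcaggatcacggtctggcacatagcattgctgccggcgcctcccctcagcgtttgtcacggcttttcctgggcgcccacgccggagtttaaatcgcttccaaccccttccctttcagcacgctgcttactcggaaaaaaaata
Mdh2 site, chr5:135807207-135807234, plus strand: gcgctaggtcCCGGAAGTgggcaaagct

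Depth set little limit on these genes. Each heart had between 29461697 and 39431030 counts on genes, and a single member had between 7759 (Suclg1) and 111402 (Ogdh) counts in a heart. The 9 together made up 0.845% to 0.932% of the gene counts. Within a group, the coefficient of variation between hearts was 4.01% to 9.45% for the 9 genes (median 5.10%), against a median of 8.72% over all genes tested and of 5.33% over those at 100 CPM or more. Cardiomyocyte markers summed to between 71640 and 85816 CPM over the 10 hearts, and none of them was near 0. Atrial markers differed between hearts: they summed to between 7308 and 10566 CPM in training and between 4371 and 9539 CPM in sedentary hearts, with 3 of 8 higher in training hearts at an FDR below 0.1. Of 10 cardiomyocyte markers, 1 was lower at that FDR, Actc1, while each of the 10 had a lower mean in training hearts (median log2 fold change −0.11). Their part in the members' values was not tested. In RNA of whole hearts, fewer cells of a type and less RNA per cell cannot be told apart.

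The level of the genes against each other was read per transcript length, in the TPM of RSEM, which divide by transcript length and library total, and averaged over the 5 sedentary hearts. Mdh2 was highest at 1030 ± 46.0 TPM (SD, n = 5), followed by Idh2 at 887 ± 59.7 TPM, Ogdh at 701 ± 31.6 TPM and Cs at 507 ± 13.5 TPM. Idh3b stood at 502 ± 30.7 TPM, Idh3g at 354 ± 7.07 TPM and Idh3a at 311 ± 26.8 TPM, while Suclg1 at 209 ± 5.62 TPM and Fh1 at 186 ± 7.64 TPM were lowest. Mdh2 was above Idh2 in 7 of 10 hearts, Cs was above Idh3b in 2 of 10, and Suclg1 was above Fh1 in 6 of 10, so these neighbours did not keep one order. All other neighbours kept it in 10 of 10 hearts. TPM were not used to compare the groups, because their median over tested genes was 0.07 higher in training hearts on the log2 scale.

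The first step is catalysed by Cs, which is widely used as a marker of mitochondrial content. Cs was at 1422, 1366, 1311, 1370 and 1319 CPM in training hearts 1 to 5 and at 1293, 1471, 1429, 1500 and 1471 CPM in sedentary hearts 1 to 5. All 5 training hearts lay below the sedentary mean, but sedentary heart 1 was below every training heart. The means were 1358 ± 45.0 and 1433 ± 82.2 CPM (SD, n = 5 each), a difference of −5.23% with a 95% interval from −11.8% to 1.83% (log2 fold change −0.08, standard error 0.048, edgeR adjusted p = 0.405).

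Isocitrate is oxidised in the matrix by the NAD-dependent enzyme, built of the catalytic subunit Idh3a with Idh3b and Idh3g, and by the separate NADP-dependent Idh2. Idh3a was at 629, 579.6, 569, 567 and 575 CPM in training hearts 1 to 5 and at 623, 631, 649.6, 615 and 585 CPM in sedentary hearts 1 to 5. Training hearts 2 to 5 were below all sedentary hearts, and training heart 1 lay among them. Idh3a differed by −5.93% (95% interval −11.9% to 0.388%, log2 fold change −0.09, standard error 0.044, edgeR adjusted p = 0.280).

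Idh3b gave 633, 573, 546, 569 and 556 CPM in training hearts and 571, 644, 607, 590.3 and 573 CPM in sedentary hearts. Training heart 1 was the second highest of all, and training hearts 3 to 5 were the lowest. The difference was −3.60% (95% interval −10.5% to 3.83%, edgeR adjusted p = 0.608).

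Idh3g, a subunit through which the enzyme is regulated, gave 462, 411, 424, 441 and 422 CPM in training hearts and 401, 453, 425, 448 and 458 CPM in sedentary hearts. Its highest value was in training heart 1 and its lowest in sedentary heart 1, so the groups overlapped widely. The difference was −1.10% (95% interval −7.92% to 6.21%, edgeR adjusted p = 0.891).

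Idh2, which makes NADPH in the matrix, was the only gene of the 9 with a higher mean in training hearts. It gave 1580, 1381, 1296, 1605 and 1519 CPM in training hearts and 1202, 1568, 1352, 1451 and 1478 CPM in sedentary hearts. It also varied most between hearts, and 3 of 5 training hearts were above the sedentary mean. The means of 1476 ± 133 and 1410 ± 140 CPM (SD, n = 5 each) differed by 4.70% (95% interval −6.46% to 17.2%, log2 fold change 0.07, standard error 0.076, edgeR adjusted p = 0.679).

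Ogdh, the E1 subunit of the 2-oxoglutarate dehydrogenase complex, had the most counts of the 9. It gave 2560, 2665, 2564, 2828 and 2779 CPM in training hearts and 2471, 2904, 2784, 2968 and 3052 CPM in sedentary hearts. As with Cs, all 5 training hearts were below the sedentary mean, and sedentary heart 1 was the lowest of the 10. The difference was −5.52% (95% interval −13.5% to 3.19%, log2 fold change −0.08, standard error 0.059, edgeR adjusted p = 0.480).

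Suclg1 encodes the alpha subunit shared by both forms of succinyl-CoA ligase, and it had the largest mean difference of the 9. It gave 304, 267, 255, 263 and 257 CPM in training hearts and 278, 299, 299, 291 and 273 CPM in sedentary hearts. Training heart 1 was the highest of all 10, while training hearts 2 to 5 were below every sedentary heart. The means were 269 ± 19.9 and 288 ± 11.7 CPM (SD, n = 5 each), a difference of −6.53% (95% interval −13.4% to 0.891%, log2 fold change −0.10, standard error 0.051, edgeR adjusted p = 0.312). Without training heart 1 the log2 fold change was −0.14 (standard error 0.040, edgeR adjusted p = 0.0758), which passed the threshold.

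Fh1, the fumarase that adds water to fumarate, gave 415, 376, 364, 385 and 380.5 CPM in training hearts and 369, 409, 381, 399 and 382 CPM in sedentary hearts. The highest value was again in training heart 1 and the lowest in training heart 3. The difference was −0.920% (95% interval −7.31% to 5.91%, edgeR adjusted p = 0.904), the smallest of the 9.

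Mdh2, which regenerates oxaloacetate and also serves the malate-aspartate shuttle, gave 1102, 1087, 1042, 1110 and 1048 CPM in training hearts and 1067, 1200, 1096, 1156 and 1169 CPM in sedentary hearts. All 5 training hearts were below the sedentary mean, while sedentary hearts 1 and 3 lay within the training range. Mdh2 differed by −5.23% (95% interval −11.3% to 1.21%, log2 fold change −0.08, standard error 0.044, edgeR adjusted p = 0.354).

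**Figure D1:**
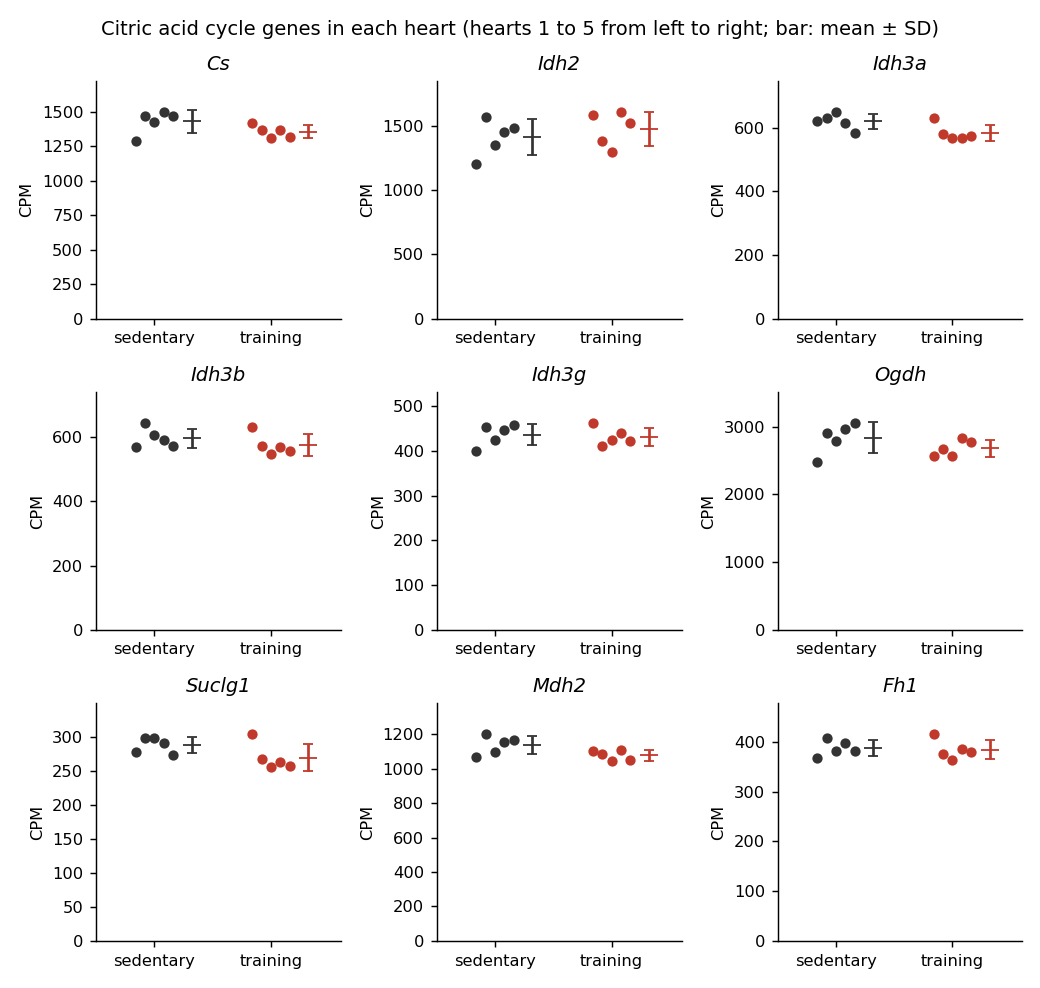
CPM of each of the 9 citric acid cycle genes (vertical axis, from 0) in the 5 sedentary (black) and 5 training (red) hearts, ordered by heart number, with the mean ± SD beside the points. The groups overlap in all 9 genes, and training heart 1 is the highest training heart in 6 of them.

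Of 8 further enzyme genes of the cycle, 6 had a lower mean in training hearts, and the median log2 fold change was −0.08. Of these 8, 1 was lower at an FDR below 0.1, against 4.26% of all genes tested. In the class at 100 CPM or more, which holds all 8, 164 of 1369 genes were lower. That gene was Dlst, the E2 core of the 2-oxoglutarate dehydrogenase complex in which Ogdh is E1. Dlst was at 629, 613.5, 585, 606 and 594 CPM in training hearts and at 632, 719, 668, 681 and 686 CPM in sedentary hearts. No training heart reached a sedentary heart, although training heart 1 and sedentary heart 1 were close. The log2 fold change of Dlst was −0.16 (standard error 0.042, edgeR adjusted p = 0.0541), and the adjusted p lay between 0.101 and 0.127 without training heart 3, 4 or 5 or without sedentary heart 2, 3, 4 or 5. It was 0.137 with an adipocyte score as a covariate and 0.103 with library totals alone, where the log2 fold change was −0.11.

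None of the other 7 passed. Dld, the E3 subunit, had a log2 fold change of −0.10 (edgeR adjusted p = 0.383). The beta subunits of succinyl-CoA ligase were at −0.11 for Sucla2 and 0.01 for Suclg2 on the log2 scale (edgeR adjusted p = 0.310 and 0.946). Of the succinate dehydrogenase subunits, Sdha was at 0.04, Sdhb at −0.07, Sdhc at −0.03 and Sdhd at −0.08 on the same scale (edgeR adjusted p = 0.399 to 0.815).

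**Figure D2:**
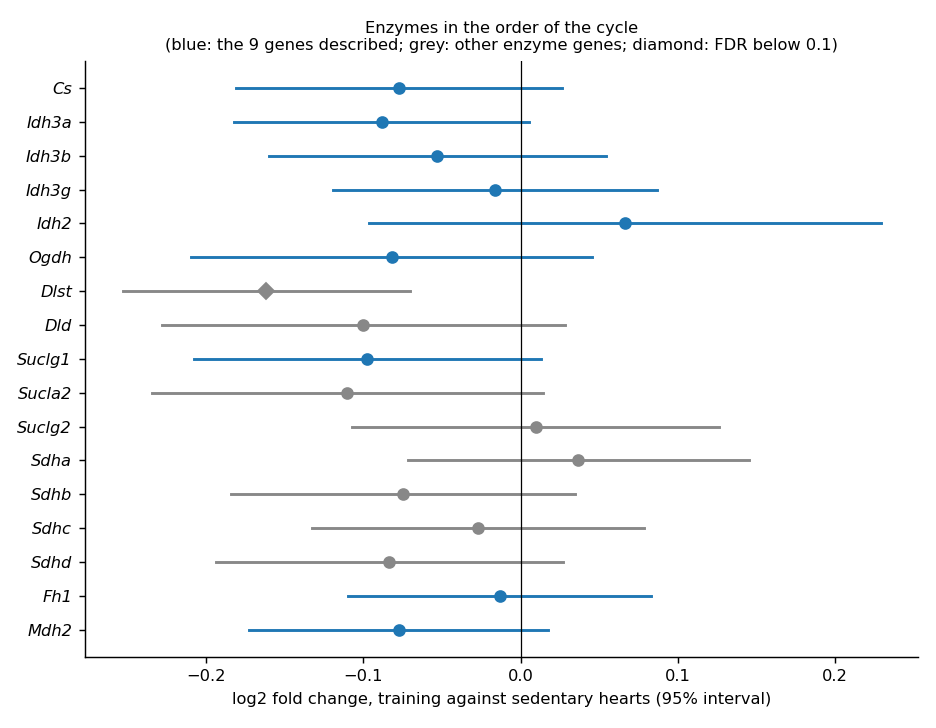
Log2 fold change, training relative to sedentary (horizontal axis), with its 95% interval for 17 enzyme genes in the order of the cycle; blue marks the 9 genes described, grey the 8 others and the diamond an FDR below 0.1. Only Dlst, at −0.16, has an interval that does not reach 0.

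Ratios of genes within a heart need no scaling between libraries, and 7 were compared between groups with an exact permutation test (two-sided, all assignments of hearts) and Benjamini-Hochberg adjustment over the 7. One passed at an adjusted p below 0.1. Succinyl-CoA ligase pairs the Suclg1 subunit with either Sucla2, which gives the ATP-forming enzyme, or Suclg2, which gives the GTP-forming enzyme. Sucla2 counts per Suclg2 count were 3.91, 3.89, 3.66, 3.88 and 3.76 in training hearts and 4.21, 4.07, 4.15, 4.18 and 4.17 in sedentary hearts. Every training heart was below every sedentary heart. On the log2 scale the difference was −0.12 (1.93 ± 0.040 against 2.06 ± 0.019, SD, n = 5 each, exact permutation p = 0.00794, adjusted p = 0.0556), and this p is the smallest that 5 against 5 hearts can give. With one heart left out, 4 against 5 hearts cannot give an exact permutation p below 0.0159, which adjusts to 0.111 where a single ratio reaches it. The difference then lay between −0.13 and −0.11. The lowest ratio was in training heart 3, which had the highest atrial marker score (0.66), and the lowest sedentary ratio was in sedentary heart 2, which had the lowest score (−0.91). Sedentary heart 1 had the highest ratio and a score of 0.33. The part of atrial content in the ratio was not tested. Neither gene of the pair passed the test across all genes.

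The other 6 ratios gave exact permutation p-values that adjusted to between 0.472 and 0.976. Idh2 per Idh3a was 2.52 in training and 2.26 in sedentary hearts (geometric means, log2 difference 0.16, exact permutation test, adjusted p = 0.472). Idh3b per Idh3a was 0.985 and 0.961, and Idh3g per Idh3a was 0.740 and 0.703. Cs per Mdh2 was 1.26 in both groups, and Mdh2 per cytosolic Mdh1 was 0.602 in training and 0.614 in sedentary hearts.

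**Figure D3:**
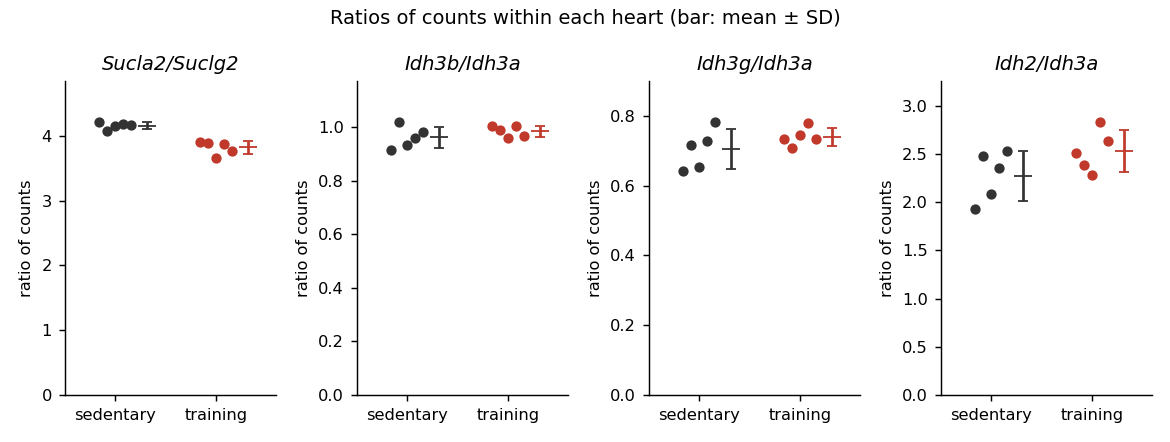
Ratios of raw counts within each heart (vertical axis, from 0) for Sucla2 to Suclg2 and for the isocitrate dehydrogenase genes, in sedentary (black) and training (red) hearts, with the mean ± SD. Sucla2 to Suclg2 runs from 3.66 to 3.91 in training and from 4.07 to 4.21 in sedentary hearts, and the other ratios overlap.

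Differences between hearts of one group were as large as those between groups. On the log2 scale and centred over the 10 hearts, the mean of the 9 genes was 0.06 in training heart 1 and −0.09 in training heart 3, and it was −0.08 in sedentary heart 1 and 0.095 in sedentary heart 2. Sedentary heart 2 was among the 3 highest hearts for 9 of 9 genes, and training heart 3 among the 3 lowest for 8 of 9. Training heart 1 was the highest of all hearts in 3 genes, and sedentary heart 1 the lowest in 4. The atrial marker score was −0.91 in sedentary heart 2 and 0.66 in training heart 3, the lowest and highest of the 10 hearts, but 0.33 both in training heart 1 and in sedentary heart 1. With that score as a covariate, 0 of 9 genes were called in edgeR, 5 of 9 were below 0 and the median log2 fold change was −0.0052. The score partly follows the group, so atrial content and training cannot be told apart in that fit. The members spread further apart in it. Idh2 went to 0.22 and was the 1 gene with an unadjusted p under 0.05 (edgeR adjusted p = 0.348), while Idh3a was at −0.10 and Suclg1 at −0.08.

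**Figure D4:**
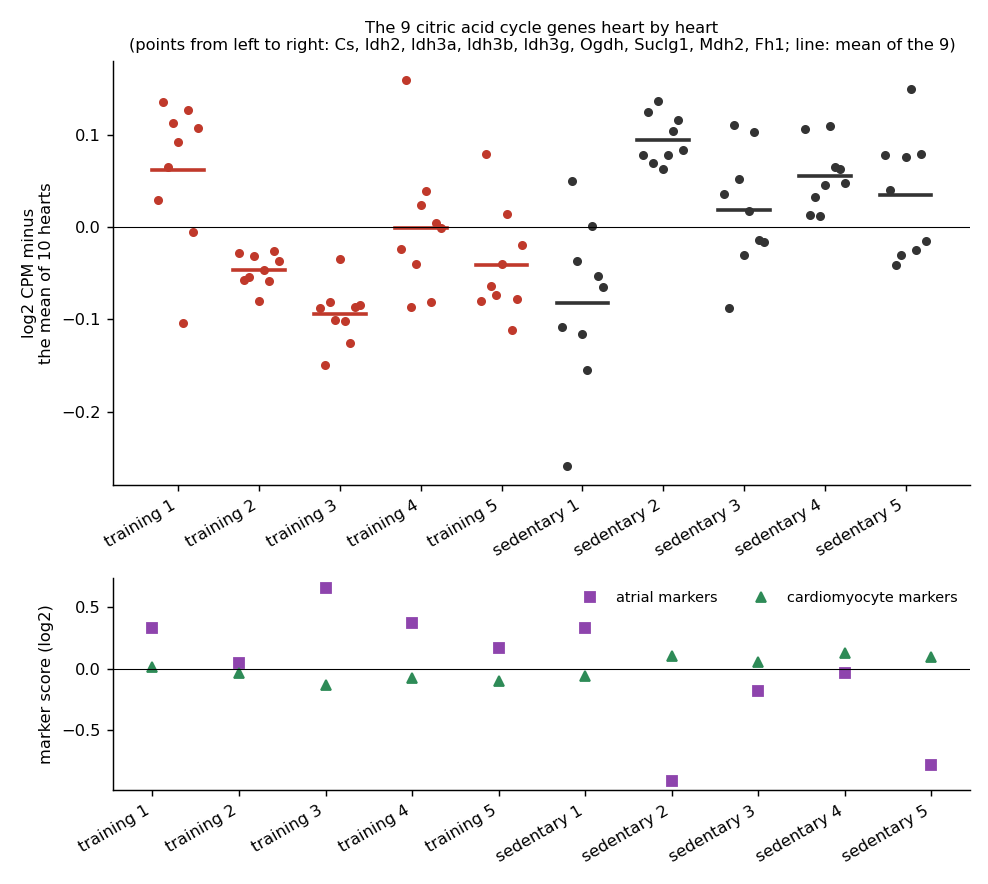
Upper panel, log2 CPM of the 9 genes in each heart minus their mean over 10 hearts (points, with their mean as a line). Lower panel, scores of atrial (squares) and cardiomyocyte (triangles) markers on the same log2 scale; sedentary heart 2, highest in the upper panel at 0.095, has the lowest atrial score at −0.91.

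Across the 10 hearts the members tended to vary together, with a median Pearson r of 0.61 over their 36 pairs and 0.64 after group means were removed, against a median of 0 over all gene pairs. These hearts share their library scaling, and the r values are a description. Pairs of genes of like abundance or cell type were not compared. Genes whose mean reached 10 CPM had a median r of 0.08 with the members' mean. Suclg1 varied with Idh3a (r = 0.93) and Idh3b (r = 0.92), and Cs with Mdh2 (r = 0.89). The lowest values were those of Idh3a with the NADP enzyme Idh2 (r = −0.11) and with Ogdh (r = −0.05). With group means removed, the lowest were Idh3a with Ogdh (r = −0.46) and Ogdh with Suclg1 (r = −0.145), and Idh2 with Idh3a was at 0.07. Over 8487 genes whose mean reached 10 CPM, the profiles most like the members' mean over 10 hearts were those of Acadm (r = 0.96), Ldhb (r = 0.96), Thap12 (r = 0.95), Myl2 (r = 0.94) and Uqcrc1 (r = 0.94), and with group means removed their r lay between 0.93 and 0.96. Acadm starts the oxidation of medium-chain fatty acids, Ldhb is the heart form of lactate dehydrogenase, Myl2 is the ventricular myosin light chain and Uqcrc1 is a core subunit of respiratory complex III. The most opposed profiles were those of Stab1 (r = −0.91), Map3k1 (r = −0.89), Npr1 (r = −0.89), Amer1 (r = −0.89) and Trim47 (r = −0.88), where group-mean removal left r between −0.89 and −0.86.

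Around the cycle, 63 further genes were grouped by role. The first group held 14 genes associated with the cycle, both related enzymes and factors that serve its enzymes. Of these, 4 were lower and 0 higher at an FDR below 0.1 (background 4.26% lower and 2.75% higher), with a median log2 fold change of −0.11. Ogdhl, a relative of Ogdh that is best known from brain, was at 189, 184, 166, 190.4 and 190.6 CPM in training and 201, 236, 218, 222 and 216 CPM in sedentary hearts. Its groups did not overlap (log2 fold change −0.25, standard error 0.051, edgeR adjusted p = 0.0231), and its call held without each single heart. Fahd1, an oxaloacetate decarboxylase, was lower too (log2 fold change −0.23, standard error 0.052, edgeR adjusted p = 0.0307) and likewise kept its call. Isca2, an iron-sulfur cluster assembly factor, was at −0.20 (edgeR adjusted p = 0.0588, and 0.101 to 0.138 without training heart 3, 4 or 5 or sedentary heart 2, 3 or 4). Mrps36, which tethers E3 to the 2-oxoglutarate dehydrogenase complex, was at −0.64 (edgeR adjusted p = 0.0448, and 0.103 without training heart 4). Its value is uncertain, because RSEM expected counts gave −0.23 and only 9.84 and 15.4 CPM mapped uniquely in training and sedentary hearts.

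Pyruvate enters the cycle through pyruvate dehydrogenase. Of 13 genes of this step 2 were lower and 1 higher (background 4.26% lower and 2.75% higher), with a median log2 fold change of −0.10. In the class at 100 CPM or more, 164 of 1369 genes were lower and 37 higher. That class holds both genes called lower here, and Ogdhl and Got1 of the neighbouring groups. Pdhx, which holds E3 in the complex, was lower (log2 fold change −0.21, standard error 0.053, edgeR adjusted p = 0.0465, and 0.108 to 0.128 without training heart 3 or 4 or sedentary heart 2 or 3). Pdp1, a phosphatase that activates the complex, was higher (0.20, edgeR adjusted p = 0.0757), with an adjusted p of 0.115 to 0.155 without training heart 1, 2, 4 or 5 or sedentary heart 3, 4 or 5. Pdpr, the regulatory subunit of that phosphatase, was lower (−0.13, edgeR adjusted p = 0.0922), and kept the call only when sedentary heart 1 was the heart left out (otherwise 0.107 to 0.193). The kinase gene Pdk3 had a log2 fold change of 0.26 that did not pass (edgeR adjusted p = 0.290).

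Of 6 cytosolic counterparts, 2 were lower and 1 higher (background 4.26% lower and 2.75% higher). Me1, the cytosolic malic enzyme, fell by 0.18 on the log2 scale (standard error 0.044, edgeR adjusted p = 0.0386, and 0.104 without sedentary heart 3). Got1, the cytosolic aspartate aminotransferase of the malate-aspartate shuttle, fell by 0.17 (edgeR adjusted p = 0.0646, and 0.122 to 0.167 without training heart 3, 4 or 5 or sedentary heart 2 or 3). Acly, which splits exported citrate to acetyl-CoA, was higher by 0.30 (edgeR adjusted p = 0.0861, and 0.106 to 0.184 without training heart 3 or 4 or sedentary heart 2, 3, 4 or 5).

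Among 15 genes of anaplerosis and shuttles, 1 was higher and 0 lower (background 2.75% higher and 4.26% lower), with a median log2 fold change of 0.02. The citrate carrier Slc25a1 was at 10.2, 8.13, 16.2, 19.8 and 10.8 CPM in training and at 8.79, 7.88, 6.76, 6.63 and 8.03 CPM in sedentary hearts. Training hearts 3 and 4 stood out, and training heart 2 lay within the sedentary range. Adipocyte marker scores were 0.66 and 1.51 in training hearts 3 and 4, the highest of the training hearts, −1.11 in training heart 2, the lowest of them, and 1.00 in sedentary heart 1, the highest of the sedentary hearts. With that score as a covariate Slc25a1 was at 0.53 (edgeR adjusted p = 0.113) and Acly at 0.23 (edgeR adjusted p = 0.212) on the log2 scale. The log2 fold change was 0.77 (standard error 0.20, edgeR adjusted p = 0.0521), and without training heart 3 or 4 or sedentary heart 3 or 4 the adjusted p was 0.107 to 0.129. Nnt, the transhydrogenase that couples NADH to NADPH in the matrix, had unique counts of only 0.654 to 1.78 CPM (log2 fold change 0.30, edgeR adjusted p = 0.478). RSEM gave it a mean of 22.1 TPM in training and 24.9 TPM in sedentary hearts. The unique counts alone therefore do not give its level, and the reason for the gap was not tested. C57BL/6J mice carry a truncated Nnt gene, and the substrain used here is not given in the sources used here.

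Of 15 regulators, 1 was lower and 0 higher (background 4.26% lower and 2.75% higher), with a median log2 fold change of −0.08. Ppara, a nuclear receptor for fatty acid oxidation genes, was at 49.6, 41.2, 45.2, 40.3 and 45.2 CPM in training and at 48.0, 50.9, 49.5, 59.4 and 59.3 CPM in sedentary hearts. Only training heart 1 overlapped the sedentary hearts (log2 fold change −0.27, standard error 0.073, edgeR adjusted p = 0.0611, and 0.114 to 0.142 without training heart 3 or 4 or sedentary heart 4 or 5). Ppargc1a, the coactivator of mitochondrial biogenesis, ran from 232 to 439 CPM in training and from 296 to 539 CPM in sedentary hearts (log2 fold change −0.29, standard error 0.17, edgeR adjusted p = 0.357). Of the factors whose motifs were searched, Esrra at −0.05, Nrf1 at 0.05 and Gabpa at 0.00 on the log2 scale did not pass either (edgeR adjusted p = 0.598, 0.708 and 0.984). Genes of the NF-Y and SP factors were not among these groups. All 13 calls among the genes around the members, Dlst included, missed the threshold once the atrial marker score was a covariate, and none changed sign. That score ran from 0.04 to 0.66 in training and from −0.91 to 0.33 in sedentary hearts. It thus partly follows the group, and atrial content and training cannot be told apart by this covariate. In that fit the log2 fold change was −0.09 for Dlst, −0.16 for Ogdhl, −0.22 for Fahd1, −0.23 for Ppara and 0.58 for Slc25a1.

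**Figure D5:**
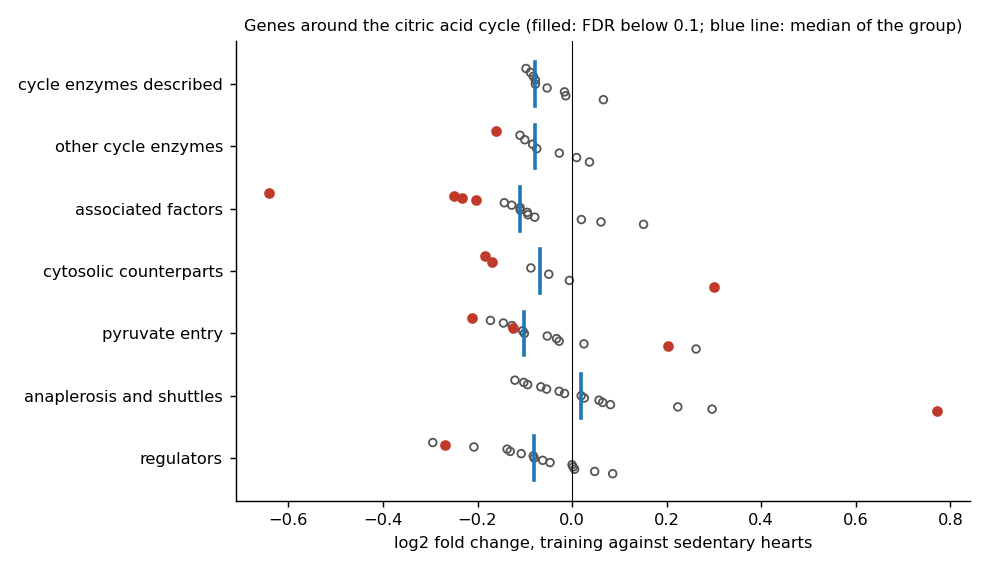
Log2 fold change, training relative to sedentary (horizontal axis), for every tested gene of 7 groups, one point per gene, filled where the FDR was below 0.1 and with the group's median as a blue line. The 9 enzymes described lie between −0.10 and 0.07 with none filled, while filled points in the other groups reach from −0.64 (Mrps36) to 0.77 (Slc25a1).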

How the data were processed

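RNA of 10 whole hearts (5 training, 5 sedentary) was sequenced from directional libraries as single reads of 100 bases. Per gene, the authors deposited the raw count of uniquely mapped reads on each strand and on both, made with STAR 2.7.10a on GRCm39. They also deposited expected counts, TPM and weighted gene lengths from RSEM 1.3.3, whose strand setting is not given in the sources used here. Reverse-strand counts were used, which held 94.9% to 95.7% of the stranded counts; lines that name no gene were left out (multimapping reads 17.9% to 19.2% and reads on no feature 4.15% to 4.89%). Groups came from the labels.

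All genes were fitted with the quasi-likelihood F test of edgeR 4.0.16 under R 4.3.3 (TMM factors, filterByExpr, Benjamini-Hochberg adjustment over 15454 genes, FDR below 0.1). CPM use TMM-corrected totals; a prior count of 2 was used for logarithms, and marker scores are means of log2 CPM centred over hearts. Intervals are 95% intervals between hearts. Ratios added 0.5 to each count and were tested with scipy 1.17.1. Symbols, starts and exons came from GENCODE M39. Libraries of a group differed by more than counting noise (chi-square per degree of freedom 6.16 to 27.4), so none was merged. Each mouse is a separate sample in the labels.

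The members, the 7 groups of genes and the 10 marker lists were chosen with earlier results of these data known. One gene of these groups is not reported here. Named were all members, the other cycle enzymes and genes of the groups that passed the FDR. Also named were the 2 of largest fold change per group whose mean reached 1 CPM, and the 5 profiles most and least like the members' mean. Actc1, Fabp4, Esrra, Nrf1, Gabpa, Acta1, Ckm, Tnnt3, Mylpf, Bmal1 and Per3 were named after their values were seen. The other marker lists follow, against a background of 2.75% higher and 4.26% lower. Of 7 adipocyte genes tested, 0 were called higher and 1 lower (Fabp4, while the other 6 were above 0, list median log2 fold change 0.65). Fibroblast genes had 2 higher and 0 lower of 7, endothelium 0 and 1 of 6, and mural 1 and 1 of 6. Macrophage genes had 0 and 0 of 6, and erythroid 0 and 0 of 5. Of 4 skeletal muscle genes tested, 0 were higher and 2 lower, Acta1 and Ckm, while Tnnt3 and Mylpf averaged under 1 CPM. Clock genes had 5 and 3 of 13, with log2 fold changes of −1.19 for Bmal1 and 0.80 for Per3. Alternatives were DESeq2 1.42.0, its size factors, library totals alone, other count filters, RSEM expected counts rounded to whole numbers, both strands, no mitochondrial DNA genes, a replicate block, a gene length trend removed (loess span 0.3), atrial or adipocyte scores as covariates, an FDR below 0.05 and each heart left out. The fits were tested on simulated data.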

Additional observations from a re-analysis of the deposited data

Results flagged for a closer look

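Among the 78 groups of 5 hearts examined for a single heart standing apart (Dixon's test at the 95% level), 4 were marked, and chance would mark about 3.9. Training heart 1 was the highest of the training hearts for Idh3a (629.3 CPM), Suclg1 (303.7 CPM) and Sdha (1597 CPM). Training heart 3 was the lowest of the training hearts for Ogdhl (165.5 CPM). Counts on the forward strand, which the comparisons do not use, made up 0.52% of the members' stranded counts in training heart 1, 0.289% in sedentary heart 3 and 0.193% in training heart 3, against 0.0419% to 0.0722% in the other 7 hearts.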

How the results depend on the processing

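Over 22 alternatives the number of members called was 0 except without training heart 1, where it was 1 (0 to 1 over single hearts left out). The members' median log2 fold change moved to −0.0052 with the atrial score. Genes called over the whole table numbered 88 with the atrial score, 526 with the adipocyte score, 505 at an FDR below 0.05, 1407 in DESeq2 and 512 to 1490 with single hearts left out, against 1084. Library totals alone gave 1029 higher and 339 lower, against 425 and 659, with a median over all genes of 0.05. The number of ratios passing, 1, became 0 under the replicate block (sign flips, smallest p = 0.0625 in an exact permutation test). It was also 0 at an adjusted p below 0.05 and with any single heart left out (0 to 0). A ratio that alone reaches the smallest exact permutation p adjusts to 0.0556 with all hearts and to 0.111 with a heart left out. Those losses were therefore fixed by the number of hearts. The log2 difference of Sucla2 to Suclg2 stayed between −0.13 and −0.11 with single hearts left out. Some log2 values changed sign: Idh3g was 0.0384 with library totals and 0.0434 with the atrial score (−0.0458 to 0.0015 with single hearts left out), Fh1 was 0.0401 with library totals, 0.0295 with the atrial score and 0.00044 with the adipocyte score (−0.0431 to 0.0061), Ogdh was 0.0186 with the atrial score, and Sdhc was 0.0265 with library totals, 0.0029 with the length trend removed and 0.0089 with the atrial score. Suclg2 was −0.0274 with RSEM counts and −0.0025 with the length trend removed (−0.0256 to 0.0531), Pdk3 went from 0.26 to −0.0379 with the atrial score, Nnt from 0.30 to −0.27 with RSEM counts, and Cs to Mdh2 was −0.0037 with RSEM counts (−0.0133 to 0.0131). The causes were not tested. The labels do not say that mouse numbers pair the hearts. With group means removed, hearts of the same number correlated at −0.10, 0.16, 0.08, 0.02 and 0.16. For training hearts 1 to 5, 3, 1, 1, 2 and 0 other sedentary hearts were more alike. These few values cannot decide whether hearts were paired. With the replicate block 1137 genes were called, 0 of 9 members among them; Acly, Got1 and Pdpr lost their calls and Ppargc1a passed (edgeR adjusted p = 0.0495). At 5 hearts a group, changes inside each member's own interval were not excluded, and depth was not the limit.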
